A study of Mus musculus with 2 samples.

Results

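The genes described here carry the calcium signal of the T cell receptor to transcription: the store-operated calcium entry genes Orai1 and Stim1, the calcineurin subunit genes Ppp3ca, Ppp3cb and Ppp3r1, the calcineurin B homologues Chp1 and Tesc, and the NFAT genes Nfatc1, Nfatc2 and Nfatc3. They are 10 of the 23282 rows of gene symbols in the deposited tables, chosen by symbol with the difference between the libraries already known. Tesc was 4.51-fold higher in the TSA library than in the control library. Chp1, Ppp3ca, Ppp3cb, Nfatc1, Nfatc3 and Orai1 were between 1.15-fold and 1.70-fold higher. Ppp3r1 and Nfatc2 stood at the same level within counting error, at 1.01-fold and 0.993-fold of control, and Stim1 stood at 0.788-fold.

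To examine early iTreg differentiation, wild-type naïve CD4+ T cells from the spleens of female C57BL/6 mice, 7 to 10 weeks old, were cultured for 1 day and total RNA was sequenced. Both cultures were activated with plate-bound anti-CD3ε and soluble anti-CD28 and received IL-2, TGF-β1 and antibodies that block IFN-γ and IL-4. The control culture received the solvent DMSO, and the other received 10 μM Tubastatin A (TSA) dissolved in DMSO. The study describes TSA as a selective inhibitor of the tubulin deacetylase HDAC6, and reports that it also raised histone H3 acetylation slightly. Each condition gave 1 library of all cells in the dish, so no difference below has a replicate check, no p-value is given, and differences between cultures, library preparations and treatments cannot be told apart. In such bulk RNA, fewer cells of a type and less RNA per cell cannot be told apart either.

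Ligation of the T cell receptor empties the calcium store of the endoplasmic reticulum, the sensor STIM1 then opens the ORAI1 channel of the plasma membrane, and the calcium that enters binds calmodulin. Calcium-bound calmodulin switches on the phosphatase calcineurin, a pair of a catalytic A and a regulatory B subunit, which removes phosphates from NFAT proteins so that they enter the nucleus. In CD4+ T cells NFAT drives cytokine genes with AP-1 and takes part in Foxp3 induction with the SMAD proteins that act downstream of TGF-β.

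The kit reads the 3′ end of each polyadenylated transcript, so a level counts captured transcripts whatever their length, and genes can be compared with each other. The deposited value of a gene is log2 of a normalized count plus 1, where 1 read was worth 1.005 normalized counts in control and 0.995 with TSA. The recovered reads summed to 10846028 and 10432339. A log2 difference is the TSA value minus the control value, a fold is its antilog, made smaller for sparse genes by the added 1, and each bracketed range is a 95% interval of the read ratio (exact Clopper-Pearson), which covers counting error only. The sources used here name no molecular identifiers, so PCR copies may count as reads. The 10 genes held between 155 and 4525 reads per library, far above the smallest amount the depth can show, which was set at 3 reads. All 10 had at least 10 reads in at least 1 library, the minimum for inclusion, which 12164 rows met.

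The CD4 T cell label was checked against markers: Lck, a kinase of the T cell receptor, had 4531 and 4187 reads in the control and TSA libraries, and Cd4 had 2434 and 2549. Of 7 CD4 T cell markers, 6 were in the tables and none of these differed by more than 2-fold. Markers of other cells were scarce. The summed reads were 80 and 87 for 2 CD8 T cell markers, 12 and 15 for 5 B cell markers, 90 and 75 for 7 myeloid markers, 77 and 81 for 4 NK cell markers, 53 and 56 for 5 platelet and megakaryocyte markers and 43 and 58 for 5 erythroid markers. The defining B cell gene Pax5 and the NK cell gene Klrb1c had 0 reads in both libraries, as did the myeloid gene S100a9. Most NK cell marker reads came from Klrd1 (47 and 40) and Eomes (30 and 40), and most myeloid marker reads from Fcer1g (62 and 50). Past 2-fold lay the B cell marker Cd79b (11 and 4 reads) and the erythroid marker Hbb-bs (4 and 17 reads). The interval of the fold was 0.084 to 1.22 for Cd79b, across no change, and 1.37 to 17.2 for Hbb-bs. The part of such cells in the differences below was not tested.

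In the control library the order of levels ran from Nfatc3 through Ppp3r1, Nfatc1, Orai1, Chp1, Ppp3cb, Nfatc2, Ppp3ca and Stim1 to Tesc. Of the 9 neighbouring pairs in this order, Orai1 and Chp1 (read ratio 1.04, 0.929 to 1.16) and Ppp3ca and Stim1 (1.14, 0.959 to 1.36) did not differ beyond counting error. In the TSA library the order was Nfatc3, Ppp3r1, Nfatc1, Chp1, Orai1, Tesc, Ppp3cb, Ppp3ca, Nfatc2 and Stim1. The pairs within counting error there were Chp1 and Orai1, Orai1 and Tesc (1.08, 0.977 to 1.20), and Ppp3cb and Ppp3ca (1.13, 0.9988 to 1.28). Tesc thus stood lowest of the 10 in control and 6th with TSA, and Stim1 took the lowest place.

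**Figure D1:**
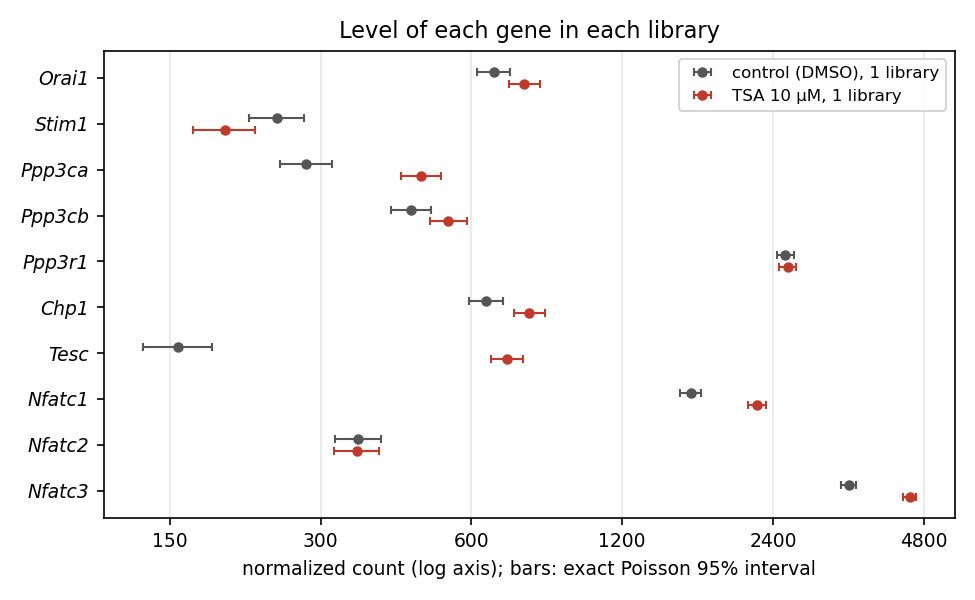
Normalized count of each gene (x axis, log scale) in the control library (grey) and the TSA library (red), with 1 point per library and bars giving the exact Poisson 95% interval of the reads. Tesc stood at 156 in control and 707 with TSA, while the 2 points of Ppp3r1, and those of Nfatc2, nearly coincide.

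Past the 2-fold threshold that the study's methods name lay 1 of the 10 genes, higher in the TSA library, and none lay past it in the lower direction. Over all included rows the share past 2-fold was 14.7%, with 11.5% higher and 3.15% lower. The counting interval lay above no change for 7 genes, below it for 1 and across it for 2, where 28.1% of all included rows lay above and 28% below. Intervals narrow with reads, and included rows may hold as few as 10 in their larger library, so these shares are no like-for-like background. The median log2 difference of the 10 genes was 0.27, and that of all included rows was 0.015. Because the genes were chosen with this contrast known, these counts describe the genes and are read no further.

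**Figure D2:**
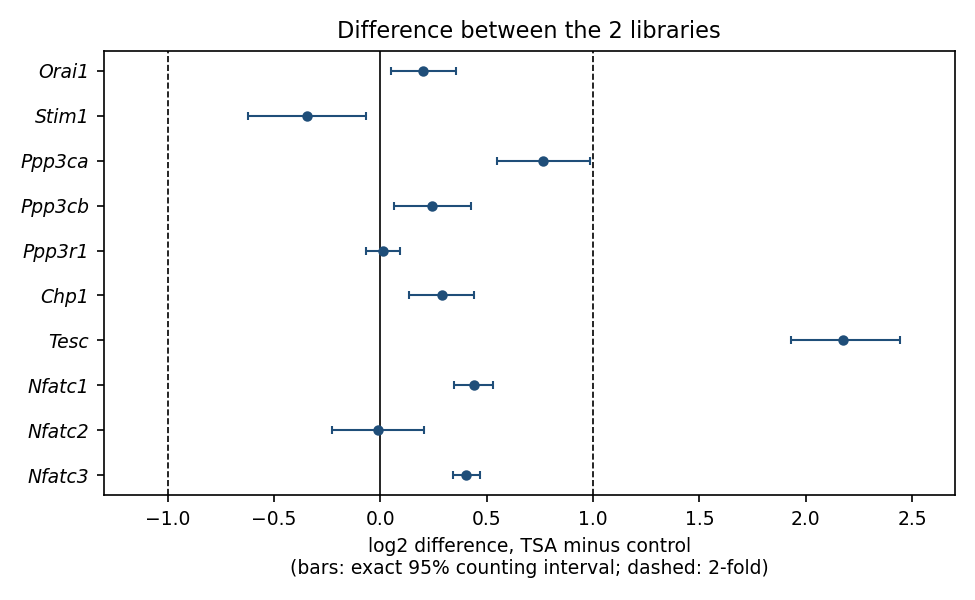
Log2 difference between the libraries (x axis, TSA minus control) for each gene, with bars for the 95% counting interval, a solid line at no change and dashed lines at 2-fold. Tesc, at 2.17, lies beyond the upper dashed line, the interval of Ppp3ca ends just short of it, and Stim1 is the gene whose whole interval lies below no change.

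Of the store-operated entry genes, Orai1 was slightly higher and Stim1 slightly lower in the TSA library. Orai1, the pore subunit of the calcium channel, had 662 reads in control and 769 with TSA, a fold of 1.15 (1.04 to 1.28). Stim1, the calcium sensor of the store, had 244 and 194 reads, a fold of 0.788 (0.649 to 0.955). Under scaling by total reads, the interval of Stim1 reached no change, at 0.681 to 1.002. Added together, the 2 genes had 906 and 963 reads, a fold of 1.05 (0.960 to 1.15).

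Relatives of these 2 genes, Orai2 and Stim2 among them, were looked at after their values were seen. Orai3, another channel subunit, had 59 and 135 reads, a fold of 2.25 (1.66 to 3.13), and Orai2 had 74 and 118 reads, a fold of 1.57 (1.17 to 2.14). The share of Orai1 in the reads of the 3 channel genes was 83.3% (80.5% to 85.8%) in control and 75.2% (72.5% to 77.9%) with TSA. Stim2 held more reads than Stim1 in both libraries, 691 and 661, a fold of 0.947 (0.850 to 1.06). The share of Stim1 in the reads of the 2 sensors was 26.1% and 22.7%, with overlapping intervals.

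The catalytic calcineurin genes were both higher in the TSA library, and the regulatory subunit gene stood at the same level in both libraries within counting error. Ppp3ca, which encodes the alpha catalytic subunit, had 279 reads in control and 479 with TSA, a fold of 1.70 (1.46 to 1.98). Ppp3cb, the gene of the beta catalytic subunit, had 453 and 542 reads, a fold of 1.18 (1.04 to 1.35). Ppp3r1, the gene of the calcineurin B subunit that binds calcium, had 2531 and 2581 reads, a fold of 1.01 (0.956 to 1.07), which became 1.06 (1.003 to 1.12) under total-read scaling. The difference of Ppp3ca was thus the larger of the 2 catalytic genes, with intervals that do not overlap.

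A further catalytic gene, Ppp3cc, named after its values were seen, had 80 and 124 reads, a fold of 1.53 (1.15 to 2.06). The 3 catalytic genes together had 812 and 1145 reads, a fold of 1.40 (1.28 to 1.53). Within that sum, Ppp3ca went from 34.4% (31.1% to 37.7%) to 41.8% (39.0% to 44.8%) and Ppp3cb from 55.8% (52.3% to 59.2%) to 47.3% (44.4% to 50.3%). The share of Ppp3cc was 9.85% and 10.8%, with overlapping intervals.

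Tesc encodes tescalcin and Chp1 a calcineurin homologous protein. Both are calcium-binding proteins of the EF-hand type that resemble calcineurin B and are known to inhibit calcineurin. Tesc had 155 reads in control and 710 with TSA, a log2 difference of 2.17 and a fold of 4.51 (3.81 to 5.43). Chp1 had 638 and 787 reads, a fold of 1.22 (1.10 to 1.36). The 2 homologues therefore differed in size of change, with intervals of the fold that do not overlap.

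As shares of the reads of Ppp3r1, Chp1 and Tesc, which summed to 3324 and 4078, Tesc held 4.66% (3.97% to 5.44%) in control and 17.4% (16.3% to 18.6%) with TSA. Chp1 held 19.2% and 19.3%. Ppp3r1 held 76.1% (74.7% to 77.6%) and 63.3% (61.8% to 64.8%). These shares do not depend on how the libraries are scaled, and they show unequal change within the family, not which gene stayed constant.

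By its log2 difference Tesc was 559th highest of the 12164 included rows. The 558 rows above it had mean normalized counts of at most 167, against 431 for Tesc. None of the 3852 other rows with a mean level within 2-fold of that of Tesc had a higher difference, and 0.0260% of them had a larger one in either direction. For Ppp3ca, 5.50% of the 3892 rows of like level had a larger difference in either direction, for Nfatc1 11.8% of 1835 and for Nfatc3 16.6% of 862. For the other 6 genes the figure lay between 34.7% for Chp1 and 97.3% for Nfatc2, so most of them moved no further than many rows of their level.

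**Figure D3:**
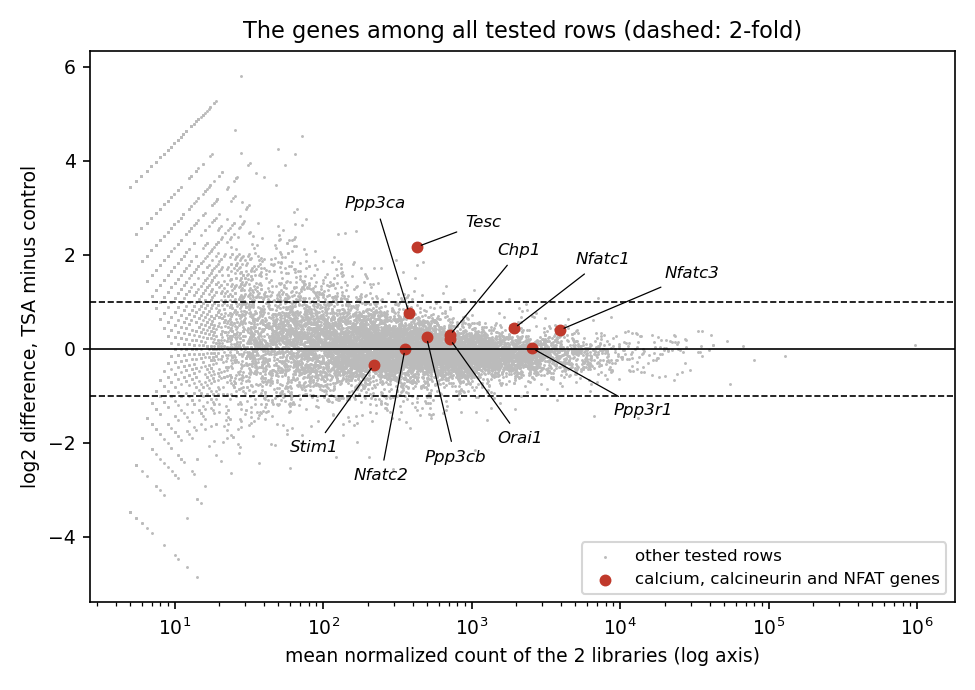
Log2 difference (y axis, TSA minus control) against the mean normalized count of the 2 libraries (x axis, log scale) for the 12164 included rows (grey) and the 10 genes (red, named). Tesc lies above the grey points of its level, and the other 9 genes lie between the dashed 2-fold lines.

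Among the included rows, the 5 closest to Tesc in the plane of control and TSA log2 values were Basp1, Ptprf, Clstn1, Dap and Mt1, at distances of 0.31 to 0.60 log2 units over 2 libraries. Ptprf, a receptor phosphatase, had 202 and 737 reads, and Mt1, a metallothionein, had 130 and 487. Their log2 differences lay between 1.51 for Dap and 1.88 for Mt1, each smaller than that of Tesc.

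In GENCODE M21 on GRCm38, the assembly that mm10 denotes, Tesc is a protein-coding gene at chr5:118027743-118061878 on the plus strand. Of 7 further genes that lie at least partly within 500 kb of its start and are in the tables, 4 met the minimum of 10 reads. Fbxo21, 51.0 kb upstream, had 213 and 287 reads, a fold of 1.33 (1.11 to 1.60). Fbxw8, whose start lies 128 kb downstream on the minus strand, had 318 and 250 reads, a fold of 0.779 (0.657 to 0.922). The gene 2410131K14Rik, 217 kb downstream, had 115 and 127 reads, a fold of 1.09 (0.843 to 1.42). Nos1, a nitric oxide synthase gene 247 kb upstream, had 0 reads in control and 12 with TSA. With the control set at 3 reads its fold was 3.96. The interval of the read ratio started at 2.75 and had no upper end. Of the 4 neighbours that met the minimum, the 3 other than Nos1 thus lay within 2-fold. Below the minimum, Rnft2, 217 kb downstream and named after its values were seen, had 0 reads in control and 8 with TSA. Its fold on the same basis was 2.64, and its interval started at 1.69.

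The 8 other genes whose positions are given here are protein-coding as well, and the position of Nfatc1 is not given here. Chp1 lies at chr2:119547697-119587027, Orai1 at chr5:123015074-123030456, Stim1 at chr7:102267806-102437319, Ppp3ca at chr3:136670124-136937727, Ppp3cb at chr14:20499364-20546573 and Ppp3r1 at chr11:17159263-17200375. Nfatc2 lies at chr2:168476410-168601657 and Nfatc3 at chr8:106058840-106130537. The 3 overlaps with other genes in the tables bear on the counts, since the sources used here do not say whether reads were assigned by strand. Wdr92, which like the other 2 overlapping genes was named after its values were seen, overlaps Ppp3r1 on the same strand and had 222 and 257 reads of its own. The antisense gene 1810062O18Rik had 19 and 3 reads beside Ppp3cb, and Esrp2, opposite Nfatc3, had 0 reads in both libraries.

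The promoters of Tesc, of its homologue Chp1 and of Stim1, the gene lowest in the TSA library relative to control, are shown. They are examples of a larger and a smaller difference above control and of one below, and no gene without a difference is shown. Each line gives the 250 bases before the RefSeq start in build GRCm38.p6, plus strand, 5′ to 3′, with the GC box GGGCGG and its reverse complement CCGCCC, overlaps counted, in capitals. Tesc is at chr5:118027493-118027742, Chp1 at chr2:119547457-119547706 and Stim1 at chr7:102267569-102267818.
Tesc: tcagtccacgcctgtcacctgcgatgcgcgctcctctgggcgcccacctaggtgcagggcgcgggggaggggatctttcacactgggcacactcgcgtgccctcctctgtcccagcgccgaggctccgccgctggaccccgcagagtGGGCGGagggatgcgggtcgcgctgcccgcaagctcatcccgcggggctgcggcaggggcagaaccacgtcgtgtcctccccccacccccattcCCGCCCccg
Chp1: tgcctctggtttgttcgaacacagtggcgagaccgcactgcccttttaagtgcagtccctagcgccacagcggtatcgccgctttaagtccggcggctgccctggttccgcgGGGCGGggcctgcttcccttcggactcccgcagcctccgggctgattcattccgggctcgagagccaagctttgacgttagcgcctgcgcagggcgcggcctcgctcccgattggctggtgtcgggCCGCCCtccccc
Stim1: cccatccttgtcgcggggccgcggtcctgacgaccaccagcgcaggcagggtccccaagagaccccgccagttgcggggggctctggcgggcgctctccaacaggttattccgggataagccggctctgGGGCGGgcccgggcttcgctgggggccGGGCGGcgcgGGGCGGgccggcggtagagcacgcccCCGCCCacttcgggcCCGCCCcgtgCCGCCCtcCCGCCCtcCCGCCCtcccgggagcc
Tesc and Chp1 had 2 GC boxes each and Stim1 had 8.

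RefSeq windows of 300 bases, 250 before and 50 after the start, were matched for 8 of the 10 genes, with 2 starts each for Nfatc2 and Nfatc3, which gave 10 windows. A GC box stood in 8 of the 10 windows and in 35.7% of all 32851 windows. The NFAT core GGAAA, or TTTCC on the other strand, stood in 4, those of Nfatc2 (both starts), Nfatc3 (1 start) and Ppp3cb, and in 61.3% of all windows. The AP-1 site TGAGTCA, or TGACTCA, was in none of the 10 and in 5.20% of all, and TATAAA, or TTTATA, was in 1, at Nfatc2, and in 13.6%. The Tesc window held 36 CpG, that of Chp1 30 and that of Stim1 38, against a median of 7. A GC-rich start of this kind was thus shared by genes that differed in their change.

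The NFAT genes differed among themselves: Nfatc1 and Nfatc3 were higher in the TSA library and Nfatc2 stood at the same level within counting error, with a log2 difference of -0.010 that became 0.060 under total-read scaling. Nfatc3 (NFAT4), the most abundant of the 10 genes, had 3386 reads in control and 4525 with TSA, a fold of 1.32 (1.27 to 1.38). Nfatc1 (NFAT2), which T cells induce on activation, had 1636 and 2239 reads, a fold of 1.35 (1.27 to 1.45). Nfatc2 (NFAT1), which naïve T cells already hold, had 355 and 356 reads, a fold of 0.993 (0.855 to 1.15). The intervals of Nfatc1 and Nfatc3 overlap each other and do not reach that of Nfatc2.

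With Nfatc4, which had 1 read in control and 0 with TSA and is named after its values were seen, the 4 calcineurin-dependent NFAT genes held 5378 and 7120 reads, a fold of 1.31 (1.27 to 1.36). Nfatc3 held 63.0% and 63.6% of these reads and Nfatc1 30.4% and 31.4%, in each case with overlapping intervals. Nfatc2 held 6.60% (5.95% to 7.30%) in control and 5% (4.51% to 5.53%) with TSA. The make-up of the NFAT reads was therefore close in both libraries, apart from a smaller share of Nfatc2.

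**Figure D4:**
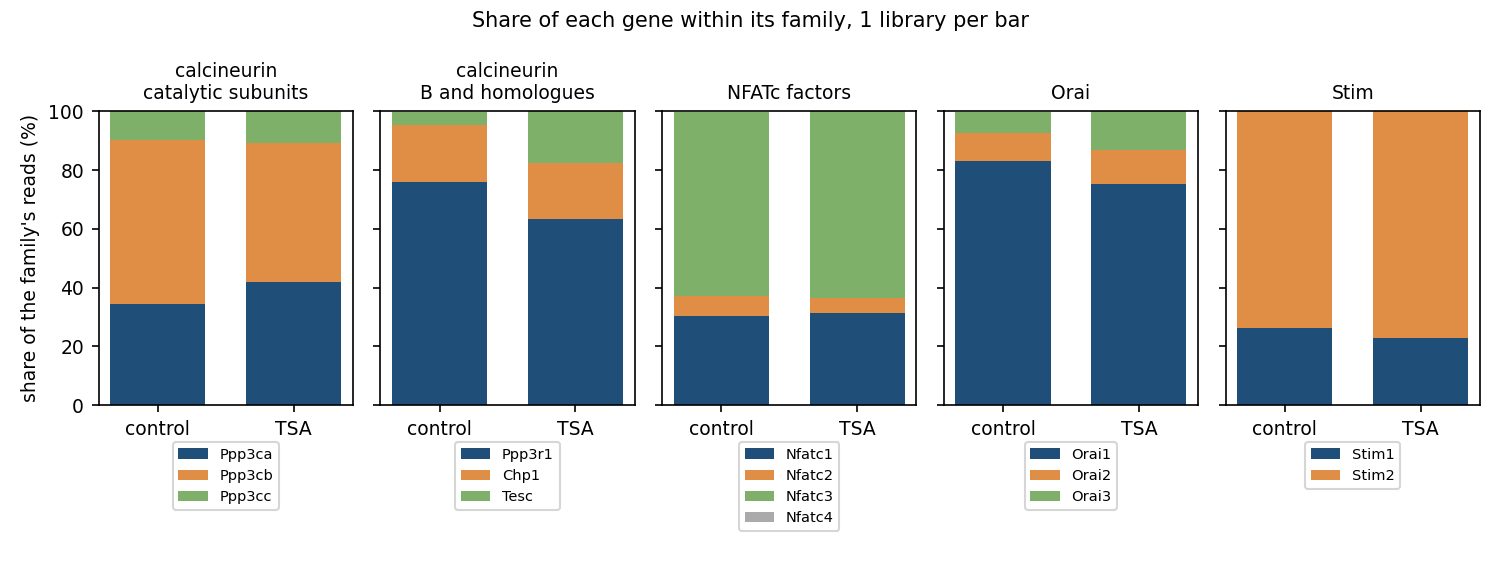
Share of the reads of each gene family (y axis, percent) held by each gene in the control and TSA libraries, with 1 library per bar and families of 2 to 4 genes. The share of Tesc grew from 4.66% to 17.4% and that of Ppp3ca from 34.4% to 41.8%, while the NFAT bars look alike.

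The rest of the pathway was examined with 7 lists of genes, chosen by known role and with earlier results of these libraries known. The 7 lists held 68 different included genes, of which 6 lay above and 1 lay below the 2-fold limits, with a median log2 difference of 0.098. Over all included rows these limits were passed by 11.5% above and 3.15% below, and the counts of the lists past these limits are given as descriptions. For the list of other store-operated entry and calcium-handling genes, 2 of 17 included genes were higher by more than 2-fold, none was lower, and the median was 0.41. Of these 17 genes, 11 had an interval above no change, 1 had one below it and 5 had one across it, beside 28.1% above and 28% below over all included rows. Here and for the lists below, read depth may differ from that of all included rows, so the interval shares are no like-for-like background. The 2 were Orai3 and Trpm4, a channel that opens on calcium, which had 11 and 56 reads, a fold of 4.70 (2.61 to 10.7). The genes with the most reads were Atp2a2, the pump that refills the store (4207 and 3898 reads, fold 0.918), and Kcnn4, a calcium-activated potassium channel (3436 and 3487 reads, fold 1.005).

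Calmodulin, calcineurin and its regulators gave no gene past 2-fold among 11, with a median of -0.031 that turned to 0.039 with total-read scaling and 0.011 with upper-quartile scaling. Fkbp1a, the target of the calcineurin inhibitor FK506, had 10490 and 10368 reads, a fold of 0.979 (0.952 to 1.006). Rcan1, a feedback inhibitor of calcineurin that NFAT induces, was named after its values were seen and had 167 and 190 reads, a fold of 1.13 (0.910 to 1.40). Of the members of this list, 3 had an interval above no change and 5 one below it (all included rows: 28.1% above and 28% below).

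The list of other NFAT factors and NFAT kinases also had no gene past 2-fold among 10, 2 had an interval above no change and 4 one below it (all included rows: 28.1% above and 28% below), and the median was -0.11. Csnk1a1, a casein kinase that phosphorylates NFAT, had 2014 and 1705 reads, a fold of 0.838 (0.785 to 0.895). Gsk3b, which returns NFAT to the cytoplasm, had 1452 and 1373 reads, a fold of 0.936 (0.869 to 1.009). Among 7 calmodulin-dependent kinase genes, Camkk1 was higher by more than 2-fold, with 14 and 42 reads, a fold of 2.84 (1.59 to 5.89), 4 had an interval above no change and 0 one below it (all included rows: 28.1% above and 28% below), and the median was 0.18. Camk4 had 572 and 710 reads (fold 1.23) and Camkk2 565 and 645 (fold 1.13), so these abundant kinases lay well inside 2-fold.

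Known NFAT target genes of T cells lay on both sides of no change. Of 15 included targets, 2 were higher and 1 was lower by more than 2-fold, 5 had an interval above no change, 5 one below it and 5 one across it, and the median was 0.061. Of all included rows, 11.5% passed the upper and 3.15% the lower 2-fold limit, and 28.1% and 28% had an interval above and below no change, so these counts lie near the background and are read no further. Irf4, a transcription factor induced by T cell receptor signals, had 6675 and 10749 reads, a fold of 1.59 (1.55 to 1.64). Il2ra, the IL-2 receptor alpha chain, had 8851 and 7511 reads, a fold of 0.840 (0.815 to 0.867).

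The targets past 2-fold rested on few reads. Il3 had 29 and 3 reads, a fold of 0.132 (0.01997 to 0.330). Fasl had 17 and 38 reads, a fold of 2.15 (1.22 to 4.18), and Il4 had 1 and 14 reads, a fold of 7.42 (2.11 to 586). All 3 encode secreted or membrane-bound signals of T cells, and they lay on both sides of no change. The control count of Il4 and the TSA count of Il3 lay at or below the 3-read floor, so the sizes of these folds are uncertain.

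Of 16 EF-hand relatives of Tesc, 4 had enough reads for inclusion, and 9 had 3 reads or fewer in both libraries. Kcnip2, a potassium channel-interacting protein, was the relative past 2-fold, with 75 and 166 reads, a fold of 2.18 (1.66 to 2.92). Cib1 had 551 and 611 reads (fold 1.10) and Hpcal1 492 and 522 (fold 1.05). Of the 4, 2 had an interval above no change and 0 one below it (all included rows: 28.1% above and 28% below), and the median was 0.22. Chp2, a further calcineurin B homologue named after its values were seen, had 0 reads in both libraries, which allows up to 3 reads in each.

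Of 8 Na+/H+ exchanger genes, 5 were included and none was past 2-fold, 2 had an interval above no change and 0 one below it (all included rows: 28.1% above and 28% below), with a median of -0.058 that turned to 0.010 with total-read scaling. Slc9a8 had 243 and 215 reads, a fold of 0.877 (0.726 to 1.06).

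**Figure D5:**
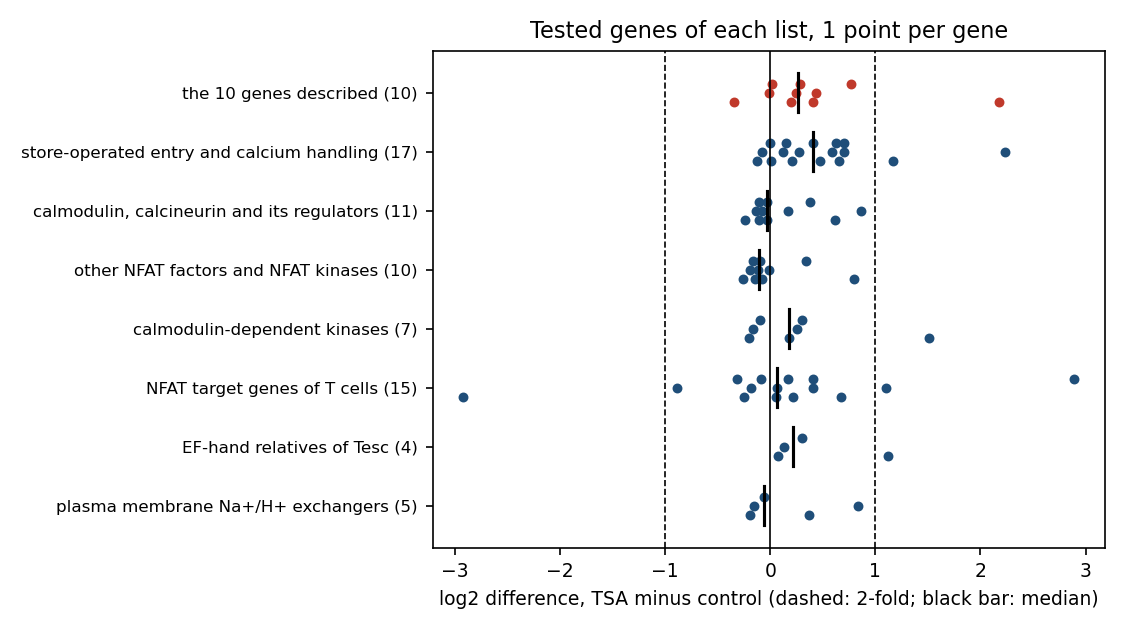
Log2 difference (x axis, TSA minus control) of the included genes of each list, with 1 point per gene, the number of genes in brackets, a black bar at the median and dashed lines at 2-fold. The 10 genes described (red) have a median of 0.27 and 1 gene past 2-fold, and the medians of the other lists lie between -0.11 and 0.41.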

How the data were processed

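RNA of 1 control and 1 TSA-treated iTreg culture was sequenced as single-end 75-nt reads from QuantSeq 3′ libraries. The submitters' processing notes list Bowtie2, bedtools and mm10, and the study's methods name ExDEGA. The normalization method, annotation and versions are not given in the sources used here. The authors deposited log2 values, 1 per row and library, which proved to be log2 of a normalized count plus 1. The 23282 rows hold 23238 distinct symbols, and 79 rows share a symbol with another.

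Reads were recovered from the steps of the values. Of values standing for 1 to 300 reads, 99.9% in control and 99.8% with TSA came out whole to 0.1 of a read, and larger counts are limited by the rounding of the deposited values. A further 1940 control rows, listed above 0 but at no more than 0.016, were taken as 0 reads. Groups came from the treatment labels. Differences of the deposited values were used, the inclusion minimum was 10 reads in either library, and steps were checked on simulated counts.

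The 10 genes and all lists were chosen with earlier results of these data known. Named are the 10 genes, and of each list the genes past 2-fold and the 2 with the most reads, together with the 5 rows closest to Tesc and its neighbours within 500 kb. Other genes are marked as named later, except cell type markers. Of the symbols, 94.7% matched the RefSeq table of GRCm38.p6. Shares have exact Clopper-Pearson intervals. The planned protein comparison was not made here, and some genes that this rule names are not reported here. Alternatives were other scalings, pseudocounts of 0.1 and 5, filters and thresholds. Plots were drawn with matplotlib 3.10.9, intervals came from scipy 1.17.1, and tables were handled in pandas 2.3.3 under Python 3.11.15.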

Additional observations from a re-analysis of the deposited data

How the results depend on the processing

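No paired analysis was possible because each condition has a single library, which also leaves no replicate to omit. The count of the 10 genes past 2-fold was 1 higher and 0 lower under each scaling, pseudocount and filter tried and when the whole interval had to lie beyond 2-fold. It was 2 higher with a 1.5-fold threshold, where Ppp3ca joined Tesc. By that threshold 2279 of the 12164 included rows were higher. Over these scalings and pseudocounts the log2 difference of Tesc lay between 2.15 and 2.24 and that of Stim1 between -0.35 and -0.27, while that of Nfatc2 lay between -0.012 and 0.060 and so took either sign. With total-read scaling, which shifts the log2 ratio of the normalized counts by 0.070 (less after the added 1 for sparse rows), 8 genes had an interval above no change, with Ppp3r1 added, and 0 had one below it, because the interval of Stim1 then reached no change, and the log2 difference of Nfatc3 was 0.47.

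With a pseudocount of 5, 1 NFAT target was higher by more than 2-fold. Without a filter on low counts, 2817 of the 23282 rows lay above and 1200 below the 2-fold limits. Then 3 calcium-handling genes were higher and 1 lower, and 1 gene of the NFAT factors and kinases and 2 NFAT targets were lower. Of the EF-hand relatives 3 were higher and 2 lower, with a median log2 difference of 0. With a minimum of 10 reads in each library, 524 rows were higher and 223 lower, and 1 NFAT target was higher and 0 lower. Of the 12164 included rows, 2279 were higher and 1014 lower with a 1.5-fold threshold, and 604 and 99 with the whole interval beyond 2-fold. The filters and thresholds act through the rows they admit. At this depth, genes at or under 3 reads in both libraries allow no comparison.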
